A study of Oryctolagus cuniculus with 24 samples.

Results

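Heat shock proteins and chaperones were followed in rabbit PBMCs, the mononuclear cells of the blood, which are mainly lymphocytes and monocytes. The members were all genes with a non-control probe whose symbol begins with HSPA, HSPB, HSPD, HSPE, HSPH, HSP90 or DNAJ, or is TCP1 or a CCT subunit. This gave 47 genes with 109 probes, of 42089 probes on the array. Averaged per gene these gave 28912 entries, called genes below, of which 9088 had a gene symbol and the others kept the identifier of the files, so that a gene without a symbol can be counted more than once. They comprised 23 DNAJ genes, 9 genes of the HSP70 and HSP110 families, 7 subunits of TRiC, 4 small heat shock proteins, both genes of the mitochondrial chaperonin, 1 HSP90 gene (HSP90B1) and HSPBAP1, which shares the letters only. Probes named HSP90AA1, HSP90AB1, HSPA1A, HSPA1B, HSPA1L, HSPA4L, HSPA6, HSPA9, HSPB1, HSPB11, CCT4 or CCT6A were not found among the probes that could be named. These genes were not analysed here and may lie among the 21590 probes without a name.

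The cells came from the blood of 4 adult females of the New Zealand White breed, which the labels call rabbits 1, 2, 4 and 5. The PBMCs of each rabbit were mock-stimulated with buffer alone, stimulated with LPS, a bacterial outer membrane component, at 1 µg/mL, or stimulated with PMA at 10 ng/mL together with ionomycin at 1 µg/mL, for 4 h (T4) or 24 h (T24). PMA activates protein kinase C and ionomycin raises intracellular calcium, and their mixture is called PMA-Ionomycin. All groups were unmodified primary cells kept in the same serum-containing medium at 37°C, without a heat shock. Each of the 6 groups held 4 arrays, 1 per rabbit, which gave 24 one-colour arrays. Each p-value rests on the spread between animals within groups, pooled over all 6 groups and moderated by limma. The rabbits are not paired in it unless a block is named.

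Chaperones bind unfolded or newly made proteins and help them to reach their native form. HSP70 proteins hold exposed hydrophobic stretches in cycles of ATP use. DNAJ proteins start these cycles by stimulating the HSP70 ATPase, and HSP110 proteins end them by releasing the nucleotide. The mitochondrial chaperonin, made of HSPD1 with its lid HSPE1, and the cytosolic chaperonin TRiC, made of TCP1 and the CCT subunits, enclose proteins in a chamber, and actin and tubulin are the best known substrates of TRiC. The endoplasmic reticulum has its own set, including HSPA5 (BiP), HSP90B1 (GRP94), DNAJB9 and DNAJC10. Lymphocytes that leave the resting state grow and raise protein synthesis.

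The probes that carried the main results are shown 5′ to 3′ as the files give them, so that what was hybridised can be seen. All are 60 bases long, and the files place them on the oryCun2 build without naming exons or introns. The HSPD1 probe 1 lies at chr7:137983021-137983080 on the minus strand, the TCP1 probe at chr12:149629089-149629148 on the minus strand, the HSPA14 probe 2 within chr16:46397932-46399347 on the plus strand, and the DNAJB9 probe 2 at chr7:45174057-45174116 on the plus strand. No position was given for HSPH1.
HSPD1 probe 1: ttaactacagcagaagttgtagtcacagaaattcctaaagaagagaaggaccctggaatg
HSPH1 probe 1: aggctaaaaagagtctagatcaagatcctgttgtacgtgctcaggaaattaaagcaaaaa
TCP1 probe 1: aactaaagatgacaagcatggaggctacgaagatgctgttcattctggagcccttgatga
HSPA14 probe 2: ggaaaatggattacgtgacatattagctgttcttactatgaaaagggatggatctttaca
DNAJB9 probe 2: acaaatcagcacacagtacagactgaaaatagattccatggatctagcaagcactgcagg

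A pair of overlapping CCT2 probes shows that probes of 1 gene are not independent measurements. Probe 2 lies within chr4:48634553-48634784 and probe 1 within chr4:48634573-48634804, both on the plus strand. Capitals mark the 40 bases that they share, 100% of the overlap.
CCT2 probe 2: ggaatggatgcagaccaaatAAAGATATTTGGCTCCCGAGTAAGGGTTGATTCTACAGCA
CCT2 probe 1: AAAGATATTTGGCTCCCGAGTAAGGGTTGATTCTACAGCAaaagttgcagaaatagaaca

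The HSP70 paralogs HSPA8, of the cytosol, and HSPA5, of the endoplasmic reticulum, are shown together because both rose at T4 and because paralogs can share probe sequence. In the ungapped alignment with the most identical bases, 23 of 40 overlapping bases (57.5%) were identical, and these are in capitals. The HSPA8 probe lies at chr1:95033519-95033578 on the plus strand, and the files give no position for HSPA5.
HSPA8 probe 1: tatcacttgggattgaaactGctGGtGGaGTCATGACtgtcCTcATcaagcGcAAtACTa
HSPA5 probe 3: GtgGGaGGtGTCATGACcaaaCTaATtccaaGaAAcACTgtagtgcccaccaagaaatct

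Levels are log2 median spot intensities minus the median of their array, so that 0 is the median spot. A level can be compared between samples of 1 gene but not between genes, because each probe has its own brightness. A difference is called when the adjusted p of limma over all genes was under 0.05. The arrays had 51.4 to 62.3% of their non-control spots well above background, and 1 non-control spot in all, of no member, was saturated. The lowest of these shares was that of LPS T4 in rabbit 4, on which 67.0% of member spots were well above background, against 73.4 to 78.9% on the other arrays. Of the 47 members, 28 to 33 passed the background test on all 4 arrays of a group, and 6 (CCT6B, DNAJB7, DNAJC5B, DNAJC5G, HSPA12A and HSPB6) were not well above background in any group.

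Markers of the cell types in PBMCs were measured on the same arrays, since RNA of a mixture was hybridised. Monocyte markers fell with PMA-Ionomycin, 4 of 7 at T4 and 6 of 7 at T24, and rose in mock-stimulated cells between T4 and T24 (4 of 7). With LPS, 2 of 7 fell at T4 (log2 differences of -1.55 for CD14 and -1.44 for CSF1R) and none was called at T24. Both platelet markers found fell with PMA-Ionomycin at T4 and in mock cells between T4 and T24 (-2.44 and -2.83 for ITGB3), and 1 of them, ITGB3, rose with PMA-Ionomycin at T24 (0.84). B cell markers fell for 4 of 5 genes at T4 and 3 of 5 at T24 with PMA-Ionomycin. Of 7 T cell markers, none was called with PMA-Ionomycin at T4, and 1 rose and 2 fell at T24. In mock cells between T4 and T24, 2 of 7 T cell markers fell (log2 differences of -0.90 for ZAP70 and -0.45 for CD247) and 1 of 5 B cell markers, CD22, rose (0.64). The NK cell marker PRF1 fell with PMA-Ionomycin at T4 and rose at T24 (log2 differences of -0.76 and 0.96). Of 2 neutrophil markers, MPO fell at T24 with PMA-Ionomycin and with LPS (-1.58 and -1.63) and rose in mock cells with time (1.10), and the erythrocyte marker ALAS2 was called in no comparison. The levels of a list were also summed on the linear scale, where its brightest probes weigh most, and the log2 of this sum was taken. For the monocyte list this value was 7.31 to 8.35 in mock T4 and 5.77 to 7.25 in PMA-Ionomycin T4. At T24 it was 8.48 to 9.76 in mock cells and 6.0 to 6.90 with PMA-Ionomycin. For the B cell list the log2 of the sum was 7.96 to 9.12 in mock T4 and 3.99 to 5.18 in PMA-Ionomycin T4. At T24 it was 7.18 to 9.37 in mock cells and 6.73 to 7.90 with PMA-Ionomycin. For the T cell list the log2 of the sum was 3.89 to 4.59 in mock T4 and 3.98 to 4.43 in PMA-Ionomycin T4. At T24 it was 3.42 to 4.17 in mock cells and 3.82 to 4.17 with PMA-Ionomycin. The defining markers CD14 of monocytes and CD79B of B cells had mean levels of 7.38 and 8.02 in mock T4. For T cells, the mean levels were 2.44 for CD5, 2.05 for CD8A, 1.05 for LCK, 0.63 for CD2, 0.20 for CD247 and -0.77 for CD4, and CD3 genes were not found by name. Such levels cannot be compared between genes and give no share of a cell type. The part of these shifts in the member results was not tested, and in bulk samples fewer cells of a type and less RNA per cell cannot be told apart.

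PMA-Ionomycin stimulation raised 19 of 47 members at T4 and lowered none, where 13.5% of all genes were called higher and 9.35% lower. At T24, 20 members rose and 2 fell (DNAJB9 and HSPBAP1), where 22.1% of all genes were called higher and 11.5% lower. In the fit that pairs the rabbits, with the rabbit as a block, 22 members were called at T4 (26.0% of all genes), of which DNAJC18 and HSPB2 were lower, and 25 at T24 (36.5%). The members called in either direction without pairing made 40.4% at T4, beside 22.8% of all genes, and 46.8% at T24, beside 33.6%. The median log2 difference of the 47 members was 0.22 at T4 and 0.44 at T24, beside 0.05 and 0.03 over all genes. Over the 9088 genes with a symbol the shares called were 26.0% at T4 (15.0% higher) and 37.1% at T24 (21.4% higher). Both chaperonins, HSP110 and part of the HSP70 and DNAJ genes rose, and no small heat shock protein was called. With LPS no member was called at either time in this fit, which does not pair the rabbits, whereas pairing them called 4 members at T4, all lower. Of all genes, 1.02% were called with LPS at T4 (0.0553% higher and 0.968% lower) and 1.22% at T24 (0.643% higher and 0.581% lower).

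**Figure D1:**
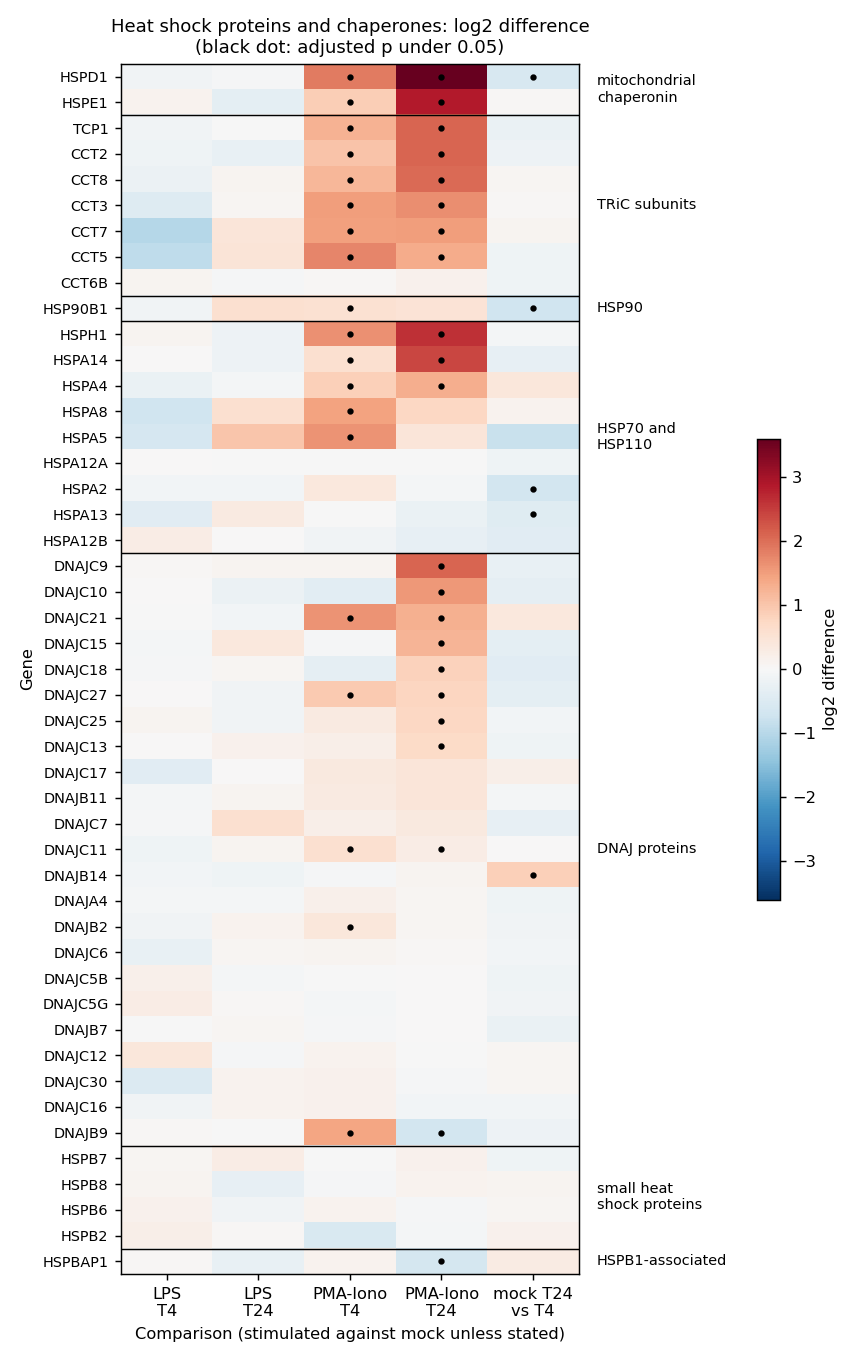
Log2 difference of each of the 47 members (rows, grouped by family) in 5 comparisons (columns), with colour from blue (lower) to red (higher) and a black dot where the adjusted p was under 0.05. The red block of the chaperonins, TRiC and HSPH1 is found in the PMA-Ionomycin columns, where 19 members were called at T4 and 22 at T24, and the LPS columns hold no dot.

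Of the members called with PMA-Ionomycin, 14 rose at both times, 4 were called at T4 alone (HSPA8, HSPA5, HSP90B1 and DNAJB2), 7 at T24 alone, and DNAJB9 rose at T4 and fell at T24. The shares of all genes with such calls were not counted, so these counts do not set the members apart. A call at a single time does not show that the effects differed, which the interaction of stimulation and time tests. That interaction, the effect at T24 minus that at T4, was called for 13 members. It was positive for 11 members, where 14.4% of all genes were called positive, and negative for DNAJB9 and HSPBAP1, where 8.16% were. Within each of the 3 slides, which all held arrays of all 6 groups, the 19 rises at T4 and the 20 rises and 2 falls at T24 had the same direction. No rabbit had its PMA-Ionomycin and mock arrays of the same time on the same slide, so these differences compare different animals. Levels of stimulated and mock cells did not overlap between the 4 rabbits for 16 members at T4, all of them higher (12.2% of all genes were higher and 9.23% lower), and for 24 members at T24, of which 22 were higher and 2 lower (21.2% and 11.0% of all genes).

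**Figure D2:**
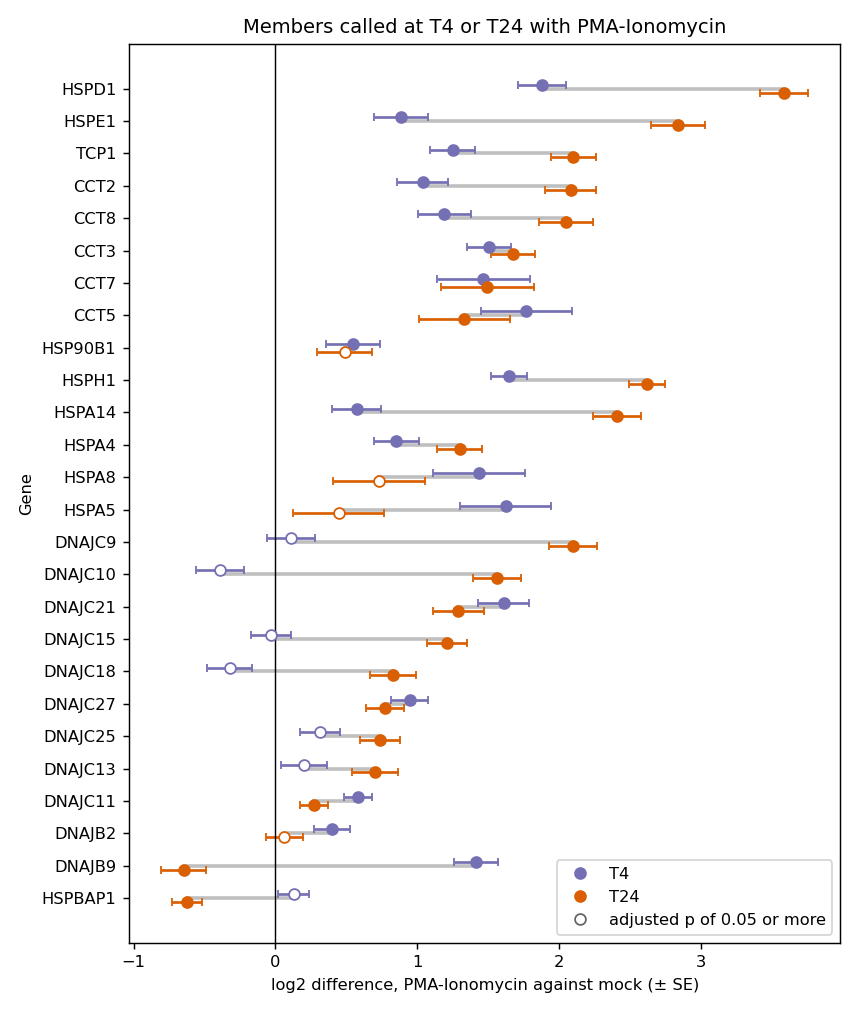
Log2 difference between PMA-Ionomycin and mock (x axis, ± SE, n = 4 rabbits a group) at T4 (purple) and T24 (orange) for the 26 members called at either time, with open symbols where the adjusted p was 0.05 or more. HSPD1, HSPE1, HSPH1 and HSPA14 lie far to the right at T24 (3.59, 2.84, 2.62 and 2.41), and DNAJB9 crosses 0 from 1.41 to -0.65.

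The largest changes among the members at T24 were those of the mitochondrial chaperonin, and at T4 HSPD1 had the largest. HSPD1 (Hsp60), which forms the folding chamber of the mitochondrial matrix, had levels of 5.06, 4.60, 4.35 and 4.38 in rabbits 1, 2, 4 and 5 in mock T4 and of 6.64, 6.21, 6.43 and 6.62 with PMA-Ionomycin. At T24 the levels were 4.19, 4.12, 4.14 and 3.67 in mock cells and 7.76, 7.61, 7.66 and 7.46 with PMA-Ionomycin. All 4 stimulated cultures lay above all 4 mock cultures at both times. The log2 difference was 1.88 ± 0.17 (SE; adjusted p = 1.56e-08), or 3.68-fold, at T4 and 3.59 ± 0.17 (adjusted p = 2.83e-13), or 12-fold, at T24. The effect at T24 exceeded that at T4 by 1.71 ± 0.24 (adjusted p = 9.56e-06).

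HSPE1 (Hsp10), the lid of the same chamber, had levels of 7.60, 6.77, 6.85 and 6.80 in mock T4 and of 8.06, 7.64, 7.69 and 8.16 with PMA-Ionomycin. At T24 they were 7.02, 7.24, 7.30 and 6.68 in mock cells and 9.93, 10.21, 9.78 and 9.68 with PMA-Ionomycin. The groups did not overlap at either time, and the mock T4 culture of rabbit 1 was the highest of its group. HSPE1 rose 1.84-fold at T4 (log2 difference 0.88 ± 0.19, adjusted p = 0.00107) and 7.16-fold at T24 (2.84 ± 0.19, adjusted p = 4.16e-11). The effect at T24 exceeded that at T4 by 1.96 ± 0.27 (adjusted p = 7.25e-06), and this held in 4 of 4 rabbits for both chaperonin genes.

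HSPD1 and HSPE1 are neighbours on chromosome 7. The probes of HSPD1 lie between 137983021 and 137983291 on the minus strand and those of HSPE1 between 137996212 and 137996403 on the plus strand, with 12920 bases between them. The 3 HSPD1 probes gave log2 differences of 3.52 to 3.64 at T24, and the 4 HSPE1 probes 2.81 to 2.88. At T4 the HSPD1 probes gave 1.79 to 1.94, whereas the HSPE1 probes spread from 0.54 to 1.01. Probe 1 of HSPE1 gave the lowest of these and the other 3 probes gave 0.97 to 1.01.

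**Figure D3:**
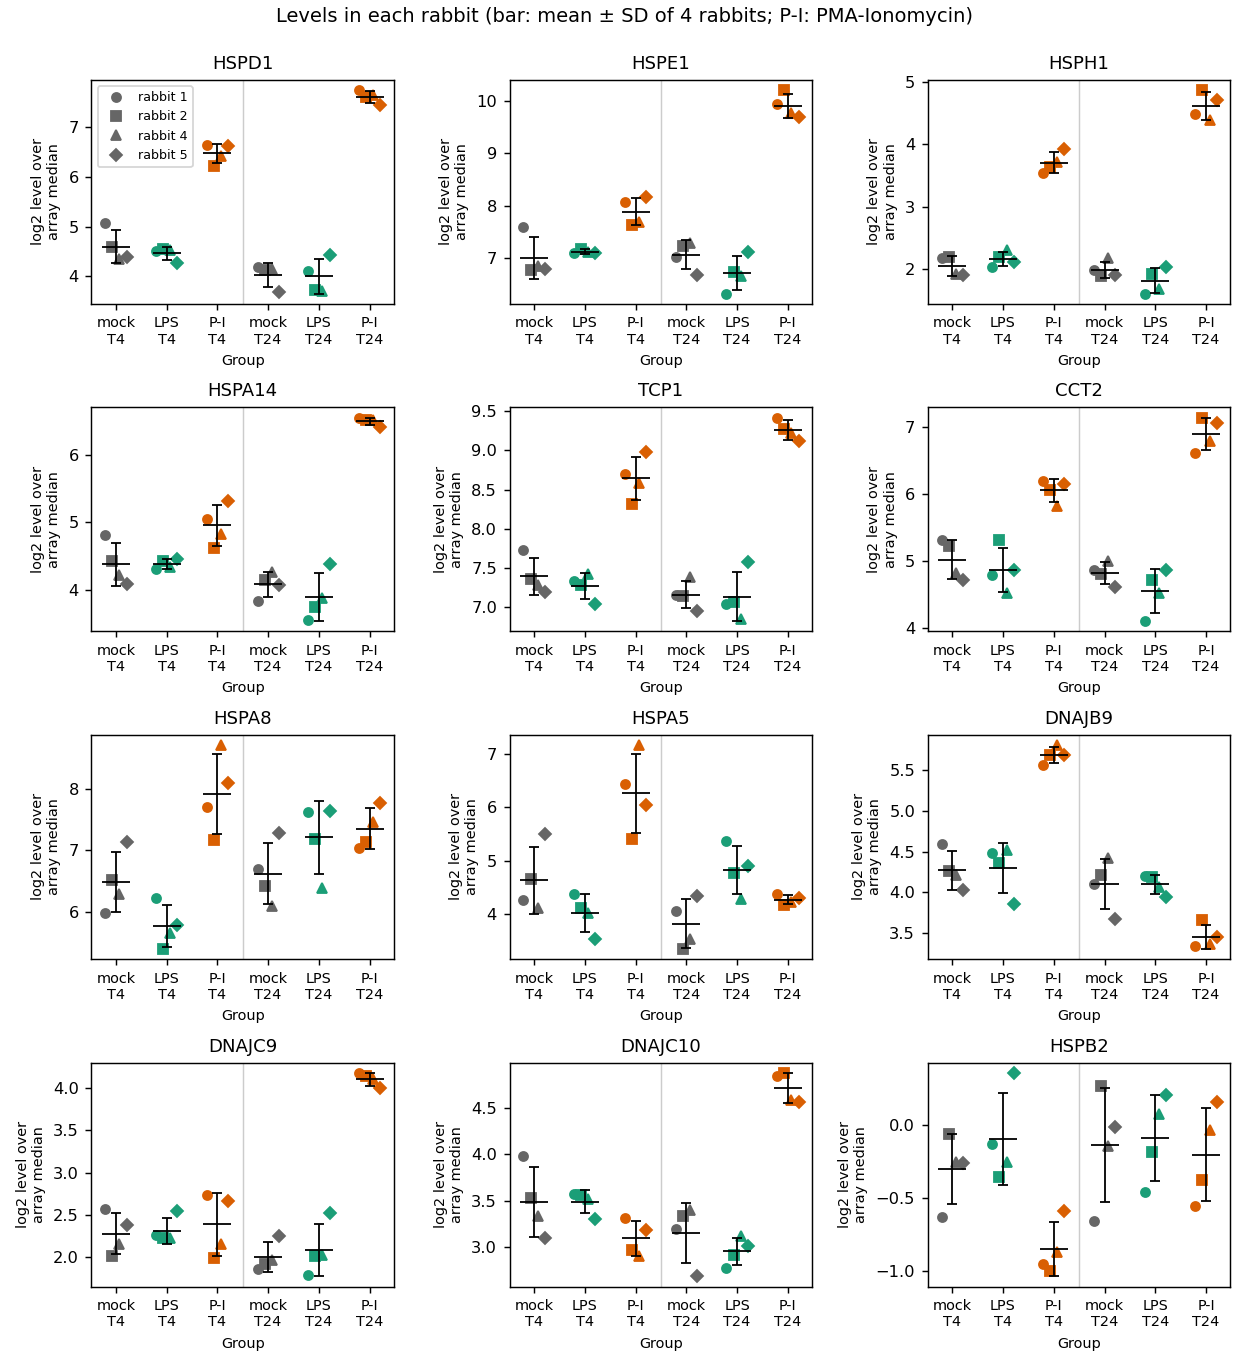
Level of 12 members (y axis, log2 over the array median, with its own range in each panel) in the 6 groups (x axis), with 1 symbol per rabbit and the mean ± SD of 4 rabbits as bars. HSPD1, HSPE1, HSPH1, HSPA14, TCP1 and CCT2 are highest with PMA-Ionomycin at T24, and DNAJB9 with PMA-Ionomycin is highest at T4 and lowest at T24.

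TRiC folds actin, tubulin and other cytosolic proteins, and 6 of its 7 measured subunits rose at T4 and at T24, when 13.5% and 22.1% of all genes were called higher. The exception was CCT6B, the testis form of a subunit, which was not well above background in any group. The median log2 difference of the 7 subunits was 1.25 at T4 and 1.68 at T24. TCP1, the subunit that gave the complex its name, had levels of 7.73, 7.36, 7.29 and 7.20 in mock T4 and of 8.70, 8.31, 8.58 and 8.97 with PMA-Ionomycin. At T24 the levels were 7.15, 7.15, 7.38 and 6.96 in mock cells and 9.42, 9.28, 9.23 and 9.12 with PMA-Ionomycin. The groups were apart at both times, by 1.25 ± 0.16 (adjusted p = 2.04e-06) at T4 and 2.10 ± 0.16 (adjusted p = 2.60e-10) at T24, on the log2 scale.

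CCT2 rose 2.05-fold at T4 (log2 difference 1.04 ± 0.18, adjusted p = 0.00012) and 4.24-fold at T24 (2.08 ± 0.18, adjusted p = 2.58e-09). Its levels were 4.87, 4.81, 5.00 and 4.61 in mock T24 and 6.62, 7.14, 6.80 and 7.06 with PMA-Ionomycin, without overlap. CCT8 rose 2.29-fold at T4 and 4.14-fold at T24 (adjusted p = 3.64e-05 and 5.85e-09). For these 3 subunits the effect at T24 was larger than that at T4, by 1.04 ± 0.26 for CCT2 (adjusted p = 0.00382), 0.86 ± 0.27 for CCT8 (adjusted p = 0.0206) and 0.85 ± 0.22 for TCP1 (adjusted p = 0.00657). The calls for CCT8 and TCP1 were lost without rabbit 1 (adjusted p = 0.298 and 0.105) and without rabbit 2 (0.193 and 0.0872). Both were also lost with the processed signal (adjusted p = 0.13 and 0.0749), and that of CCT8 with quantile normalization, without or with normexp (0.203 and 0.21).

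For CCT3, CCT5 and CCT7 the interaction with time was not called at the gene level. CCT5 rose 3.41-fold at T4 and 2.52-fold at T24 (adjusted p = 0.000172 and 0.00179), and CCT7 2.77-fold and 2.82-fold (adjusted p = 0.00147 and 0.000748). The interactions of CCT5 and CCT7 were -0.44 ± 0.45 and 0.03 ± 0.46 (adjusted p = 0.631 and 0.986). Levels varied more within groups in these genes than in other subunits: CCT5 levels with PMA-Ionomycin at T4 ran from 2.91 in rabbit 2 to 4.50 in rabbit 4, and the CCT7 levels of LPS T4 from 2.16 in rabbit 4 to 3.78 in rabbit 1. Animal and array cannot be told apart here. On the arrays of both low values few non-control spots were well above background, 52.6% and 51.4%. The SE of their differences was 0.32 and 0.33, against 0.16 to 0.19 for TCP1, CCT2, CCT3 and CCT8.

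The 8 probes of CCT3 gave different values at either end of the measured stretch, which lies on the plus strand of chromosome 13. Probes 1, 7 and 8 lie between 36565172 and 36570031, and probes 2 to 6, shifted by a few bases from each other, between 36572556 and 36572620. The upstream probes rose by 1.71 to 1.78 (log2) at T4 and by 0.93 to 1.17 at T24, with interactions of -0.84 to -0.54, none of them called. The downstream probes rose by 1.34 to 1.40 at T4 and by 2.04 to 2.12 at T24, with interactions of 0.66 to 0.73, all called (adjusted p = 0.0263 to 0.0378). The difference between the probe groups was not tested. The gene value of CCT3, a mean over all 8 probes (1.51 ± 0.16 at T4, 1.68 ± 0.16 at T24), averages them.

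**Figure D4:**
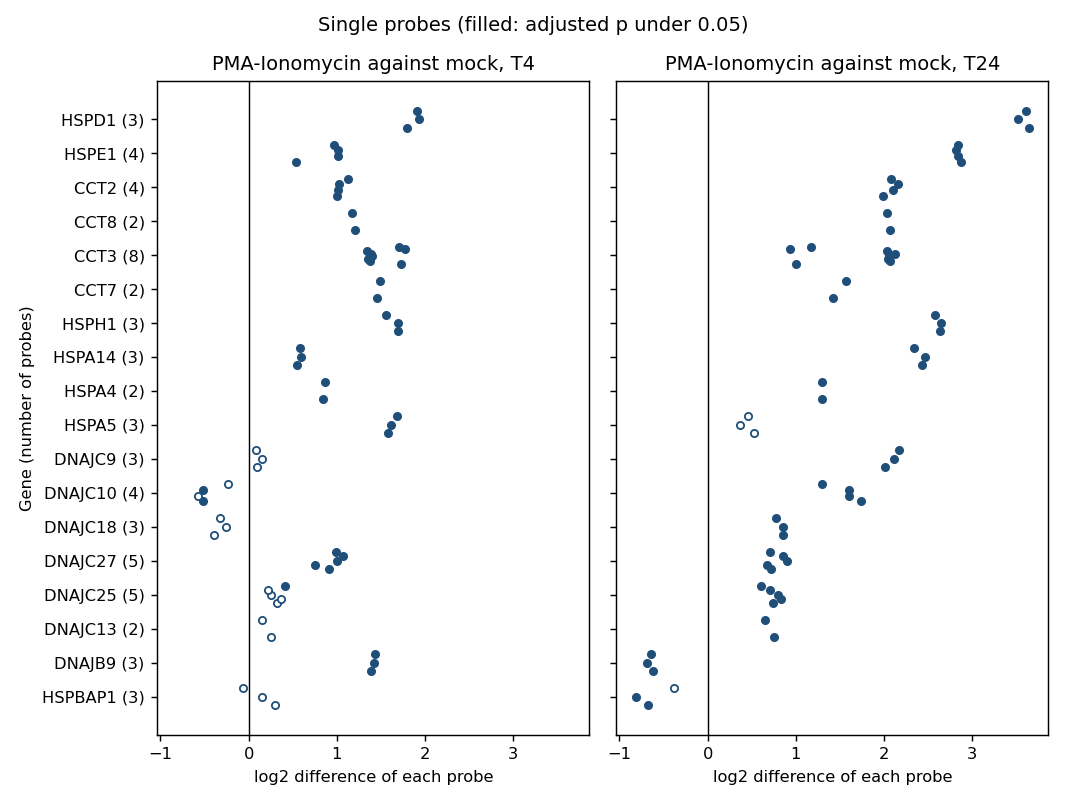
Log2 difference between PMA-Ionomycin and mock of each single probe (x axis) at T4 (left) and T24 (right), for the 18 called members with more than 1 probe (y axis, number of probes in brackets), filled where the adjusted p over probes was under 0.05. Probes of most genes lie close together, as for HSPD1 (3.52 to 3.64 at T24), whereas those of CCT3 split at T24 into 0.93 to 1.17 and 2.04 to 2.12.

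In the HSP70 and HSP110 families, 5 of 9 genes rose at T4 and 3 of 9 at T24, and none fell. The share called was 55.6% at T4, beside 22.8% of all genes, and 33.3% at T24, where it was near the 33.6% of all genes. HSPH1 (Hsp110), a nucleotide exchange factor of HSP70, had levels of 2.18, 2.20, 1.93 and 1.91 in mock T4 and of 3.54, 3.64, 3.71 and 3.93 with PMA-Ionomycin. At T24 the levels were 1.99, 1.89, 2.18 and 1.91 in mock cells and 4.48, 4.87, 4.38 and 4.71 with PMA-Ionomycin. The lowest stimulated culture lay above the highest mock culture at each time. The rise was 3.14-fold at T4 (log2 difference 1.65 ± 0.13, adjusted p = 1.58e-09) and 6.16-fold at T24 (2.62 ± 0.13, adjusted p = 4.20e-13), and the effects differed by 0.97 ± 0.18 (adjusted p = 0.000261). HSPA4, of the same HSP110 branch, rose 1.81-fold at T4 and 2.46-fold at T24 (adjusted p = 0.000258 and 5.39e-07).

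HSPA14, an HSP70 protein that works at the ribosome, had levels of 4.81, 4.42, 4.21 and 4.07 in mock T4 and of 5.05, 4.62, 4.82 and 5.31 with PMA-Ionomycin, so that the groups overlapped. At T24 the levels were 3.83, 4.15, 4.26 and 4.07 in mock cells and 6.53, 6.51, 6.52 and 6.40 with PMA-Ionomycin, far apart. The log2 difference was 0.57 ± 0.17 (adjusted p = 0.0154) at T4 and 2.41 ± 0.17 (adjusted p = 9.69e-11), or 5.32-fold, at T24, with an interaction of 1.84 ± 0.24 (adjusted p = 4.02e-06). The call at T4 was lost without rabbit 4 (adjusted p = 0.104) and without rabbit 5 (0.153). It was also lost with quantile normalization (adjusted p = 0.0537) and when only the arrays of this comparison were fitted (0.0664).

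HSPA8 (Hsc70), the constitutive HSP70 of the cytosol, and HSPA5 (BiP) were called at T4 alone. HSPA8 levels were 5.98, 6.52, 6.29 and 7.14 in mock T4 and 7.70, 7.17, 8.72 and 8.11 with PMA-Ionomycin, which did not overlap. The log2 difference was 1.44 ± 0.32 (adjusted p = 0.00164), or 2.71-fold, at T4 and 0.73 ± 0.32 (adjusted p = 0.0913) at T24. That later difference was called in the paired fit, with a block for the rabbit (adjusted p = 0.0495). HSPA5 levels were 4.26, 4.65, 4.12 and 5.50 in mock T4 and 6.44, 5.40, 7.16 and 6.04 with PMA-Ionomycin, and the mock culture of rabbit 5 lay above the stimulated culture of rabbit 2. HSPA5 rose 3.09-fold at T4 (log2 difference 1.63 ± 0.32, adjusted p = 0.000455), from 0.54 to 3.04 in single rabbits, and its difference at T24 was 0.45 ± 0.32 (adjusted p = 0.354). The interactions of 2 genes with time, -0.71 ± 0.46 for HSPA8 and -1.18 ± 0.45 for HSPA5, were not called (adjusted p = 0.348 and 0.0675).

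HSPA2, best known from testis, had a log2 difference of 0.38 ± 0.16 at T4 (adjusted p = 0.0901, or 0.028 with the rabbit as a block) and of -0.07 ± 0.16 at T24 (adjusted p = 0.835). HSPA13, of the endoplasmic reticulum, had differences of -0.02 ± 0.14 and -0.24 ± 0.14 (adjusted p = 0.967 and 0.234). HSP90B1 (GRP94), the HSP90 protein of the endoplasmic reticulum, which folds Toll-like receptors and integrins, rose 1.46-fold at T4 (log2 difference 0.55 ± 0.19, adjusted p = 0.041) with overlapping levels of 6.83 to 7.32 in mock cells and 7.10 to 7.97 with PMA-Ionomycin. Its call was lost without rabbit 1, 4 or 5 (adjusted p = 0.098, 0.376 and 0.0635). It was also lost with quantile normalization, without or with normexp (adjusted p = 0.42 and 0.36), the processed signal (0.122), the deposited table (0.0838), the arrays of the comparison only (0.0753) and the slide as a block (0.059). At T24 the difference was 0.49 ± 0.19 (adjusted p = 0.0531, or 0.0185 with the rabbit as a block).

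DNAJ proteins are the largest family here, and 5 of 23 rose at T4, none fell, 9 rose at T24 and DNAJB9 fell. The share called was 21.7% at T4, beside 22.8% of all genes, and 43.5% at T24, beside 33.6%, so that the count at T4 was near that of all genes. DNAJB9 (ERdj4), a partner of HSPA5 in the endoplasmic reticulum and a target of the unfolded protein response, had levels of 4.60, 4.26, 4.21 and 4.02 in mock T4 and of 5.56, 5.69, 5.81 and 5.69 with PMA-Ionomycin. At T24 the levels were 4.10, 4.21, 4.42 and 3.68 in mock cells and 3.34, 3.66, 3.37 and 3.45 with PMA-Ionomycin. The stimulated cultures lay above the mock cultures at T4 and below them at T24, without overlap at either time. The log2 difference was 1.41 ± 0.16 (adjusted p = 3.30e-07), or 2.67-fold, at T4 and -0.65 ± 0.16 (adjusted p = 0.00201) at T24, and the interaction was -2.06 ± 0.22 (adjusted p = 2.42e-07), with the same sign in 4 of 4 rabbits. All 3 probes were called higher at T4 (1.39 to 1.44) and lower at T24 (-0.69 to -0.62). Without rabbit 4, the fall at T24 was -0.51 (adjusted p = 0.0504).

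Several DNAJ genes were called at T24 and not at T4. DNAJC9, a chaperone of histones H3 and H4, had levels of 2.57, 2.02, 2.16 and 2.38 in mock T4 and of 2.74, 2.0, 2.16 and 2.67 with PMA-Ionomycin, which overlapped. At T24 the levels were 1.86, 1.92, 1.97 and 2.26 in mock cells and 4.17, 4.13, 4.10 and 3.99 with PMA-Ionomycin. DNAJC9 rose 4.28-fold at T24 (log2 difference 2.10 ± 0.17, adjusted p = 7.05e-10), and its difference at T4 was 0.11 ± 0.17 (adjusted p = 0.798). The effects at the 2 times differed by 1.99 ± 0.24 (adjusted p = 1.17e-06).

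DNAJC10 (ERdj5), a disulfide reductase of the endoplasmic reticulum, had levels of 3.19, 3.33, 3.40 and 2.68 in mock T24 and of 4.84, 4.87, 4.59 and 4.56 with PMA-Ionomycin, 2.96-fold higher (1.56 ± 0.17, adjusted p = 6.87e-08). At T4 its difference was -0.39 ± 0.17 (adjusted p = 0.106), and 2 of its 4 probes were called lower on their own. DNAJC15, of the inner mitochondrial membrane, rose 2.31-fold at T24 (1.21 ± 0.14, adjusted p = 2.55e-07), by 1.18 to 1.24 in single rabbits. DNAJC18 rose 1.77-fold (0.83 ± 0.16, adjusted p = 0.000241), after a difference of -0.32 ± 0.16 at T4 (adjusted p = 0.185, or 0.0425 with the rabbit as a block). The effect at T24 exceeded that at T4 for all 3 genes, by 1.95 ± 0.24 for DNAJC10, 1.24 ± 0.20 for DNAJC15 and 1.15 ± 0.23 for DNAJC18 (adjusted p = 1.40e-06, 5.26e-05 and 0.000553).

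DNAJC21, a factor of ribosome biogenesis, rose 3.06-fold at T4 (1.61 ± 0.18, adjusted p = 3.49e-07) and 2.44-fold at T24 (1.29 ± 0.18, adjusted p = 3.34e-06). DNAJC27, a Rab-like GTPase with a J domain, rose 1.93-fold at T4 (0.95 ± 0.13, adjusted p = 7.44e-06). At T24 its probes were not well above background in mock cells, and it was at least 1.71-fold higher with PMA-Ionomycin (adjusted p = 4.64e-05). DNAJC11, of the mitochondrial membranes, rose 1.5-fold at T4 (0.58 ± 0.10, adjusted p = 7.10e-05) and 1.21-fold at T24 (0.27 ± 0.10, adjusted p = 0.0343). The latter call was lost without any one of the rabbits 1, 2, 4 and 5 (adjusted p = 0.0932, 0.0952, 0.0694 and 0.234). It was also lost with the processed signal, the deposited table, the arrays of the comparison only, and eBayes with trend and robust (adjusted p = 0.453, 0.342, 0.109 and 0.0544).

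DNAJC25 and DNAJC13, which acts on endosomes, were called at T24 (log2 differences of 0.74 ± 0.14 and 0.70 ± 0.16, adjusted p = 0.000181 and 0.00124), and the call of DNAJC13 was lost with the processed signal (adjusted p = 0.0662). DNAJB2 was called at T4 (0.40 ± 0.13, adjusted p = 0.0249), but not without rabbit 1, 2 or 4 (adjusted p = 0.0557, 0.141 and 0.112), nor with the processed signal or the deposited table (0.166 and 0.0651). With the rabbit as a block, DNAJB11 (ERdj3), another partner of HSPA5, was called at T24 (0.44 ± 0.18, adjusted p = 0.0398, against 0.0595 without). The other 11 DNAJ genes were called at neither time, and 3 of them (DNAJB7, DNAJC5B and DNAJC5G) were not well above background in any group.

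None of the 4 small heat shock proteins HSPB2, HSPB6, HSPB7 and HSPB8, which are known mainly from muscle, was called in any comparison without the block. HSPB2 had overlapping levels of -0.63 to -0.06 in mock T4 and of -1.0 to -0.58 with PMA-Ionomycin, where it was not well above background on any array. The estimated difference, a bound set by the background, was at least 1.32-fold lower. It was not called (adjusted p = 0.052), except with the rabbit as a block (0.00893). HSPB6 was at background in all groups, and HSPB7 and HSPB8 were well above background on 1 of 24 arrays each. HSPBAP1, which binds the small heat shock protein HSPB1, had levels of 0.46, 0.72, 0.60 and 0.78 in mock T24 and of -0.08, -0.02, 0.01 and 0.15 with PMA-Ionomycin, without overlap. It fell by 0.62 on the log2 scale (SE 0.11, adjusted p = 5.30e-05) at T24, and the interaction with time was -0.75 ± 0.15 (adjusted p = 0.000631).

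LPS stimulation gave no called member at T4 or T24 in the fit without pairing, where the lowest adjusted p was 0.0876 and 0.163. The median log2 difference of the 47 members was -0.05 at T4 and 0.02 at T24, beside 0.06 and -0.03 over all genes. At T4 the levels of LPS and mock cells did not overlap for 6 members, all lower with LPS (5.04% of all genes, beside 2.3% higher). At T24 they did not overlap for DNAJC15 and HSP90B1, which were higher (2.08% of all genes), and HSPBAP1, which was lower (2.27%). With the rabbit as a block, no member was called at T24 (2.61% of all genes) and 4 members were at T4 (4.25%), all lower: CCT7 (-1.03 ± 0.33, adjusted p = 0.0248, against 0.122 without the block), CCT5 (-0.90 ± 0.32, 0.0475 against 0.175), HSPA13 (-0.41 ± 0.14, 0.0484 against 0.152) and DNAJC30 (-0.51 ± 0.15, 0.042 against 0.0876). CCT7 levels were 3.86, 4.06, 4.05 and 4.79 in mock T4 and 3.78, 3.04, 2.16 and 3.68 with LPS, and the lowest of them was on the array with the fewest member spots above background.

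The effect of LPS at T24 minus that at T4 was called for no member (lowest adjusted p = 0.0576), where 1.94% of all genes were called. The rabbit block called 4 members (5.77% of all genes), all positive: HSPA13 (0.72 ± 0.20, adjusted p = 0.0163), CCT7 (1.46 ± 0.46, 0.02), CCT5 (1.37 ± 0.45, 0.0302) and HSPA5 (1.61 ± 0.45, 0.0362). HSPA5 levels with LPS at T24 were 5.37, 4.78, 4.28 and 4.90 against 4.07, 3.36, 3.54 and 4.35 in mock cells, overlapping but higher in 4 of 4 rabbits, with a difference of 1.00 ± 0.32 (adjusted p = 0.163). HSP90B1 was 0.58 ± 0.19 higher with LPS at T24 (adjusted p = 0.174), also in 4 of 4 rabbits. HSPD1, HSPE1 and HSPH1 had differences between -0.35 and 0.12 with LPS at both times.

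Mock-stimulated cells also differed between T4 and T24, in 5 members, of which DNAJB14 rose (7.42% of all genes rose) and 4 fell (5.14% of all genes fell). DNAJB14, of the endoplasmic reticulum membrane, rose 1.81-fold (0.85 ± 0.21, adjusted p = 0.00582). HSP90B1 fell by 0.71 on the log2 scale (SE 0.19, adjusted p = 0.0133), HSPA2 fell by 0.66 (SE 0.16, adjusted p = 0.00525), HSPD1 fell by 0.57 (SE 0.17, adjusted p = 0.0276), and HSPA13 fell by 0.43 (SE 0.14, adjusted p = 0.0463). Leaving out rabbit 1, 2, 4 or 5 left 0, 1, 2 or 3 of the 5 calls. The call of HSPA13 was also lost with the deposited table, the slide as a block, eBayes with trend and robust, and the arrays of the comparison only (adjusted p = 0.0507, 0.0724, 0.0868 and 0.158), and that of DNAJB14 with the processed signal and the arrays of the comparison only (0.0626 and 0.0815). HSPD1 was not called either with the arrays of the comparison only. The levels of mock T4 and T24 did not overlap for 6 members, of which HSPA4 was higher (7.18% of all genes) and 5 were lower (7.03%). The mock level of HSPD1 was thus 1.48-fold lower at T24, which enters its 12-fold difference at that time.

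Genes that act with the members were counted from lists of the pathway, and their counts with PMA-Ionomycin stand beside 13.5% of all genes called higher and 9.35% lower at T4, and 22.1% higher and 11.5% lower at T24. Of 16 HSP90 and HSP70 cochaperones, 5 rose with PMA-Ionomycin at T4, and 9 rose and 1 fell at T24. BAG2, NUDC and STIP1, which links HSP70 to HSP90, rose at T4 (log2 differences of 0.96 ± 0.12, 0.84 ± 0.28 and 0.70 ± 0.15). FKBP4 and PPID, immunophilins of the HSP90 cycle, and TOMM70, a mitochondrial import receptor, rose at T24 (1.76 ± 0.31, 1.71 ± 0.17 and 1.29 ± 0.16). BAG3, a nucleotide exchange factor of HSP70, was the only gene of these pathway lists called with LPS at T4 or T24, by -1.01 ± 0.19 at T4 (adjusted p = 0.0215). The effect of LPS at T24 minus that at T4, called positive for 1.71% of all genes, was called for BAG3 (1.62 ± 0.27, adjusted p = 0.00393), STIP1 (0.82 ± 0.21, 0.0464) and CLPB, a mitochondrial disaggregase (0.76 ± 0.19, 0.0398).

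Prefoldin delivers unfolded actin and tubulin to TRiC. Of 7 genes of prefoldin and related TRiC helpers, 2 rose at T4 (PFDN2 by 0.74 ± 0.10 and PFDN4 by 0.71 ± 0.21), and 5 rose and 1 fell at T24, when PFDN4 rose 3.78-fold, UXT 2.22-fold and PFDN6 1.77-fold. Of 6 genes of mitochondrial folding and proteases, PAM16, of the import motor, rose at T4 (0.61 ± 0.15), and 3 rose at T24 (PAM16 by 1.59 ± 0.15, HSCB, a cochaperone of iron-sulfur cluster assembly, by 1.47 ± 0.26, and CLPB by 0.42 ± 0.14).

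Of 11 folding genes of the endoplasmic reticulum, ERO1A, an oxidase that makes disulfide bonds, and SDF2 rose at T4 (1.63 ± 0.21 and 0.94 ± 0.29), while at T24 ERO1A rose (1.08 ± 0.21) and ERP29 and SDF2 fell (-1.12 ± 0.40 and -0.80 ± 0.29). Of 5 genes of the unfolded protein response, EIF2AK3 (PERK) fell at T4 (-0.69 ± 0.16), and HERPUD1, EIF2AK3 and ERN1 (IRE1) fell at T24 (-1.36 ± 0.26, -0.89 ± 0.16 and -0.66 ± 0.17). Of 4 genes of heat shock factors and their partners, HSF1, the main activator of heat shock genes, rose 2.02-fold at T4 and 1.66-fold at T24 (adjusted p = 0.00178 and 0.0159), and HSF2BP rose 1.39-fold at T24. The median log2 difference at T24 was 0.54 for the cochaperones, 0.80 for prefoldin and TRiC helpers, 0.44 for the mitochondrial list, 0.18 for endoplasmic reticulum folding, -0.66 for the unfolded protein response and 0.21 for the heat shock factors, beside 0.03 over all genes. In the same order the medians at T4 were 0.26, 0.60, -0.21, -0.03, 0.09 and 0.09, beside 0.05 over all genes.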

How the data were processed

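The authors deposited the scanner output of 24 one-colour arrays, made with Feature Extraction 10.7.3.1 from Cy3-labelled RNA, in which the median signal is an intensity of the spot in pixel brightness with no background correction or scaling. A log2 table deposited beside them holds, for each probe, the log2 median signal less an array constant (largest deviation 5.03e-09 over 42089 probes). The file headers name the GE1_107_Sep09 protocol, and the methods a GE2 protocol.

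Control spots and outlier spots were left out. The log2 median signal was centred on the median of each array, and spots were averaged per probe and probes per gene. Probes were named by the gene name in the files, a RefSeq accession, or a gene number, which for 38 of 109 member probes stood in the probe description, through the RefSeq table of the mOryCun1.1 assembly, whose positions were not used. Groups were taken from the sample titles. All 24 arrays were fitted with a mean for each group in R 4.3.3 with limma 3.58.1 (lmFit and eBayes), Benjamini-Hochberg adjustment over 28912 genes and a threshold of 0.05. Tables and figures were made in Python 3.11.15 with pandas 2.3.3 and matplotlib 3.10.9. A gene not well above background on any array of a group is given as a bound. The number of arrays limits the precision, and the steps were tested on simulated data.

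Members and lists were chosen with earlier results of these data known. Named were the main HSP90, HSP70, HSP110, chaperonin and TRiC genes, and of the other members the 5 largest called rises and falls in each comparison. Of the pathway and marker lists, the 3 largest called changes were eligible. Further members, the single marker levels and the probe groups of CCT3 were chosen after their values were seen.

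Rabbit numbers mark the same animals, so the samples are paired: deviations from the group means had a median correlation of 0.23 within rabbits (60 pairs) and -0.08 between rabbits (180 pairs). The methods use no block, so blocking on the rabbit was tried as an alternative. Further alternatives changed the scaling (quantile, processed signal at the 75th percentile, normexp with offset 50), took the deposited log2 table, dropped dim probes, kept outlier spots, fitted the arrays of the comparison only, blocked on the slide, used eBayes with trend and robust, tested single probes, or left out each rabbit. Protein and promoter sequences of the members were not analysed here.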

Additional observations from a re-analysis of the deposited data

Results flagged for a closer look

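Stimulation with PMA-Ionomycin had effects at T4 and T24 that differed, by the interaction of stimulation and time in limma, for 13 of 47 members (27.7%), beside 22.5% of all genes and 24.5% of those with a symbol. The effect at T24 minus that at T4, on the log2 scale, was 1.99 for DNAJC9, 1.96 for HSPE1, 1.95 for DNAJC10, 1.84 for HSPA14 and 1.71 for HSPD1. It was 1.24 for DNAJC15, 1.15 for DNAJC18, 1.04 for CCT2, 0.97 for HSPH1, 0.86 for CCT8 and 0.85 for TCP1. DNAJB9 (-2.06) and HSPBAP1 (-0.75) went the other way.

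In 8 of the 162 groups of 4 rabbits searched, over 27 members, 1 rabbit stood far from the other 3, as chance gives in about 1 of 20 such groups. In mock T4 the HSPE1 level was 7.60 in rabbit 1, against 6.77 to 6.85 in the others, and in mock T24 the HSPD1 level was 3.67 in rabbit 5, against 4.12 to 4.19. In LPS T4 the level of HSPD1 was 4.27 in rabbit 5, against 4.51 to 4.54, that of DNAJC9 was 2.54 in rabbit 5, against 2.23 to 2.26, and that of CCT3 was 5.06 in rabbit 4, against 5.69 to 5.81. In PMA-Ionomycin T4 the level of DNAJC18 was 1.72 in rabbit 5, against 2.11 to 2.14, that of DNAJC27 was 0.30 in rabbit 1, against 0.67 to 0.71, and that of HSPBAP1 was 0.26 in rabbit 2, against 0.54 to 0.55.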

How the results depend on the processing

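Over 59 called member values and 14 alternatives, 826 values were compared: 769 stayed called, 57 kept their direction without the call, 31 of the latter on leaving out 1 rabbit, and none turned its direction. The calls of 46 values were kept under every alternative in which they could be fitted. Leaving out each rabbit gave 16 to 19 members for PMA-Ionomycin at T4, 21 at T24, 11 to 14 for its interaction with time, 0 to 3 for mock T24 against mock T4, and 0 for LPS at T4, at T24 and in its interaction.

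The count of mock T24 against mock T4, 5 in the report, was 8 with quantile normalization, 9 with normexp and quantile normalization, and 3 with the arrays of the comparison only. That of LPS at T4, 0 in the report, was 4 with the rabbit as a replicate block and 1 with single probes (DNAJC6). That of the LPS interaction with time, also 0, was 4 with the replicate block, 2 without dim probes (HSPA13 and HSPA5) and 1 with single probes (HSPA5). The causes were not tested. The replicate block also called DNAJC18 and HSPA12B in mock T24 against mock T4, and it ended no call. Scaling the processed signal to its 75th percentile shifted the median of all genes to 0.22 for LPS at T4, -0.16 for PMA-Ionomycin at T4, -0.26 at T24 and -0.30 for the LPS interaction with time, which was -0.11 with the scaling of the report. Members near background, such as the small heat shock proteins, are limited by their signal.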
